A study of Mus musculus with 9 samples.

Results

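Potassium channel genes were followed across the layers of mouse piriform cortex, the olfactory cortex that receives input from the olfactory bulb. The genes were the protein-coding genes whose symbol starts with Kcn, except Kcnj8 and Kcnj10, each represented by its transcript with the highest mean count. Of 91 such genes, 73 had at least 10 counts in at least 3 of the 9 samples and were kept, among 13547 protein-coding genes and 56416 transcripts that passed the same filter. All 9 samples came from wild type C57BL/6 mice, aged 8 weeks by the labels, whereas the methods of the study give another age. Layer A, layer B and layer C had 3 replicates each, cut by laser from frozen brain sections and sequenced after RNA amplification. The letters are used as they stand, since no key ties them to the anatomical layers I, II and III. The labels do not say how many mice were used or which samples share a mouse. The p-values treat the samples as independent and measure only the spread between them. They are too small if replicates of the same layer share mice. Sharing of mice across layers would be a pairing that the main fit leaves out.

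Potassium channels let potassium ions leave or enter cells and set the resting potential, the shape of action potentials and the firing pattern of neurons. Voltage-gated channels are assembled from pore subunits, some of which form no channel alone and act by joining others, and from auxiliary subunits that change gating or trafficking. Inward rectifiers and tandem-pore channels hold cells near their resting potential and, in astrocytes, also take up potassium released by active neurons. Calcium-activated channels link spiking to the calcium that enters with it.

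The pore of these channels holds a selectivity filter, a short stretch of threonine, glycine, tyrosine and glycine codons in most families. A pattern of 5 codons in a row (threonine, any codon with T in the middle, glycine, a codon starting with TA, which encodes tyrosine, and glycine) was searched in frame on the coding strand of the most abundant transcript and was present in 43 of the 71 members whose transcript has an annotated coding sequence. Among 13429 protein-coding genes searched in the same way, 53 (0.395%) held it. It was found in 8 of 8 silent voltage-gated subunits, in 9 of 9 inward rectifiers and in 20 of 20 voltage-gated pore subunits outside the Kcnh family. All 7 Kcnh members lacked it and held the pattern GGNTTNGGN, in each with a phenylalanine codon (TTT or TTC) in place of tyrosine. That shorter pattern also admits the leucine codons TTA and TTG, and it was found in 1850 of the 13429 genes (13.8%). None of the 8 auxiliary subunits searched held either pattern. The segments below come from members that the layer comparisons turn on, from the coding sequences of GENCODE release M21 on GRCm38, with the matched codons in capitals and 21 bases on either side.
Kcna1: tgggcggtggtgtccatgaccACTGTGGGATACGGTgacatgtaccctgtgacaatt
Kcnf1: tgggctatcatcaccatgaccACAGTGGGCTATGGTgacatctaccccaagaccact
Kcnv1: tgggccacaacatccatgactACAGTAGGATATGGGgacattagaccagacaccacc
Kcng1: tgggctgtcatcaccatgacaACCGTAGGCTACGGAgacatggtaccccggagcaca
Kcnj13: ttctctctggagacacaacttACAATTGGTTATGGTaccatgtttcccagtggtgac
Kcnh1: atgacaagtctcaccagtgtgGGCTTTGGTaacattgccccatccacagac
The 3 silent subunits Kcnf1, Kcnv1 and Kcng1 carry the same filter pattern as Kcna1, which forms a channel alone. A match describes the letters and was not tested for function.

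Total counts ranged from 23104306 to 76471683 per sample. Mitochondrial transcripts took 56.4 to 72.6% of the counts in layer A, 13.1 to 30.1% of those of layer B and 21.2 to 59.0% of those of layer C. The other transcripts had 6929782 to 19051783 counts in layer A, at least 22117880 in layer B and 9477078 to 60245059 in layer C. Levels are given as normalized CPM, counts scaled to a common library size by edgeR's TMM method. The amplified reads carried no molecular identifiers, and the kit used does not mark strand, so reads of overlapping genes on opposite strands cannot be told apart. Exons of 20 members share bases with a gene on the other strand. In 5 of them more than 10% of the transcript is shared with 1 such gene. Of the 73 members, 20 had another transcript within 10% of the count of the one used, so those counts cannot be assigned to 1 isoform. Layer B replicate 3 stood apart from its own layer. Its correlations of log2 CPM across transcripts were 0.913 and 0.904 with replicates 1 and 2, which had 0.987 with each other. With layer C replicates 1, 2 and 3 it had higher values, 0.935, 0.921 and 0.945. Layer B replicates 1 and 2 had 0.936 to 0.97 with the layer C samples.

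Markers of several cell types differed between layer A and the other layers, counted here at an adjusted p-value under 0.05 in edgeR's test. None of the listed markers passed between layers B and C, where no transcript did. Of all transcripts, 5.83% passed as lower in layer A and 10.7% as higher against layer B. Against layer C these shares were 4.35% and 6.98%. The 5 markers shared by all neurons were lower in layer A in 5 of 5 cases against layer B and in 4 of 5 against layer C. Their summed level was 726 to 1227 normalized CPM in layer A, while layer B had 2060 to 5429 and layer C 2355 to 3204. Of 6 glutamatergic markers 2 passed as lower against layer B and 3 against layer C, but their sum was highest in layer A (2316 to 4223 against 1132 to 1233 and 1122 to 1656), carried by Camk2a, which passed as higher. Astrocyte markers were higher in layer A in 6 of 6 cases in each comparison, with sums of 4427 to 9823 in layer A against 634 to 1004 in layer B and 1126 to 1506 in layer C. Endothelial markers (103 to 123 against 6.64 to 18.4 in layer B and 14.5 to 22.8 in layer C) and meningeal markers (63.7 to 140.1 against 1.27 to 7.05 and 4.02 to 5.23) were higher in layer A as well, in 6 of 6 cases each against layer B. Other lists moved less. Of 7 GABAergic markers 1 passed as higher in layer A against layer B and 2 as lower against layer C. Of 6 oligodendrocyte markers 1 passed as higher against layer B and 0 against layer C. In tissue of mixed cells, fewer cells of a type and less RNA per cell cannot be told apart. The part of these cell types in the differences of the channel genes was not tested.

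Together the 73 members took 0.138 to 0.165% of the non-mitochondrial counts in layer A, 0.220 to 0.248% of those of layer B and 0.225 to 0.244% of those of layer C. The share in every layer A sample was below that in every sample of the other layers. Per kilobase of transcript, the highest mean levels of the 3 layers were those of Kcnip3, a calcium-binding protein that accompanies A-type channels (23.4 CPM per kilobase), Kcnk1, a tandem-pore channel (18.6), Kcnma1, the large-conductance calcium-activated channel (13.9), and Kcna1, a low-threshold delayed rectifier of axons (13.5). Kcnv1, a silent subunit, followed with 12.3 CPM per kilobase. The lowest was Kcnj5 with 0.0621 CPM per kilobase, and 28 members were below 1 CPM per kilobase.

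**Figure D1:**
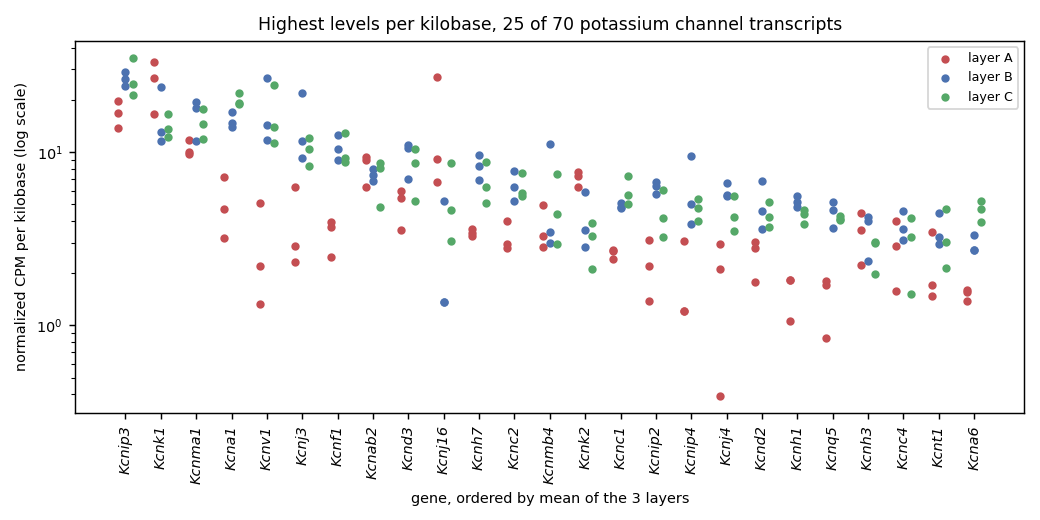
Normalized CPM per kilobase of transcript, on a log scale, of the 25 members with the highest mean among 70 of the 73, with 1 point per sample coloured by layer. Kcnip3 and Kcnk1 have the highest means, and for Kcna1, Kcnv1, Kcnj3 and Kcnf1 the 3 layer A points lie below all others.

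In the comparison of layers A and B, 32 of the 73 members had an adjusted p-value under 0.05 in edgeR's quasi-likelihood test (Benjamini-Hochberg, 56416 transcripts), against 16.5% of all transcripts. Of these, 25 (34.2% of the members) were lower in layer A, against 5.83% of all transcripts, and 7 (9.59%) were higher in layer A, against 10.7%. Restricted to the most abundant transcript of each protein-coding gene, the background was 22.3% called, 8.24% lower and 14.1% higher. The median log2 fold change of layer A over layer B was -0.90 for the members and -0.12 for all transcripts. Without layer B replicate 3 the number called was 37, where 20.1% of all transcripts were called. It was 17 without layer B replicate 1 (10.1% of all transcripts), 21 without layer B replicate 2 (12.6%) and 18 without layer A replicate 1 (10.1%), so the share of all transcripts moved in the same direction.

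Between layer A and layer C, 23 members passed the same edgeR test, against 11.3% of all transcripts. Of these, 18 were lower in layer A, against 4.35%, and 5 were higher, against 6.98%. Among the most abundant transcripts of protein-coding genes 16% were called, 5.93% lower and 10.1% higher. The members' median log2 fold change was -0.78, and that of all transcripts -0.01. This count moved more with single samples, to 36 without layer B replicate 3, where 17.3% of all transcripts were called. It was 12 without layer A replicate 1 (4.96% of all transcripts), 14 without layer A replicate 2 (5.86%), 15 without layer C replicate 2 (6.71%) and 7 without layer C replicate 1 (2.42%). The comparisons share the layer A samples. In both, 15 members were lower in layer A, against 3.42% of all transcripts, and 4 were higher, against 6.42%. In neither did 37 members pass. A test for any difference among the 3 layers called 28 members, against 14.3% of all transcripts. With 1 transcript per gene in the fit it called 32, against 21.8%. Values of layer A lay below all of layer B in 34 members, where 15.1% of all transcripts did so, and below all of layer C in 34 members, against 14.5%. They lay above all of layer B in 9 members, against 9710 of 56416 transcripts, and above all of layer C in 11, against 9566. The shares for these counts and for the joint calls are over all transcripts, not 1 per gene.

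**Figure D2:**
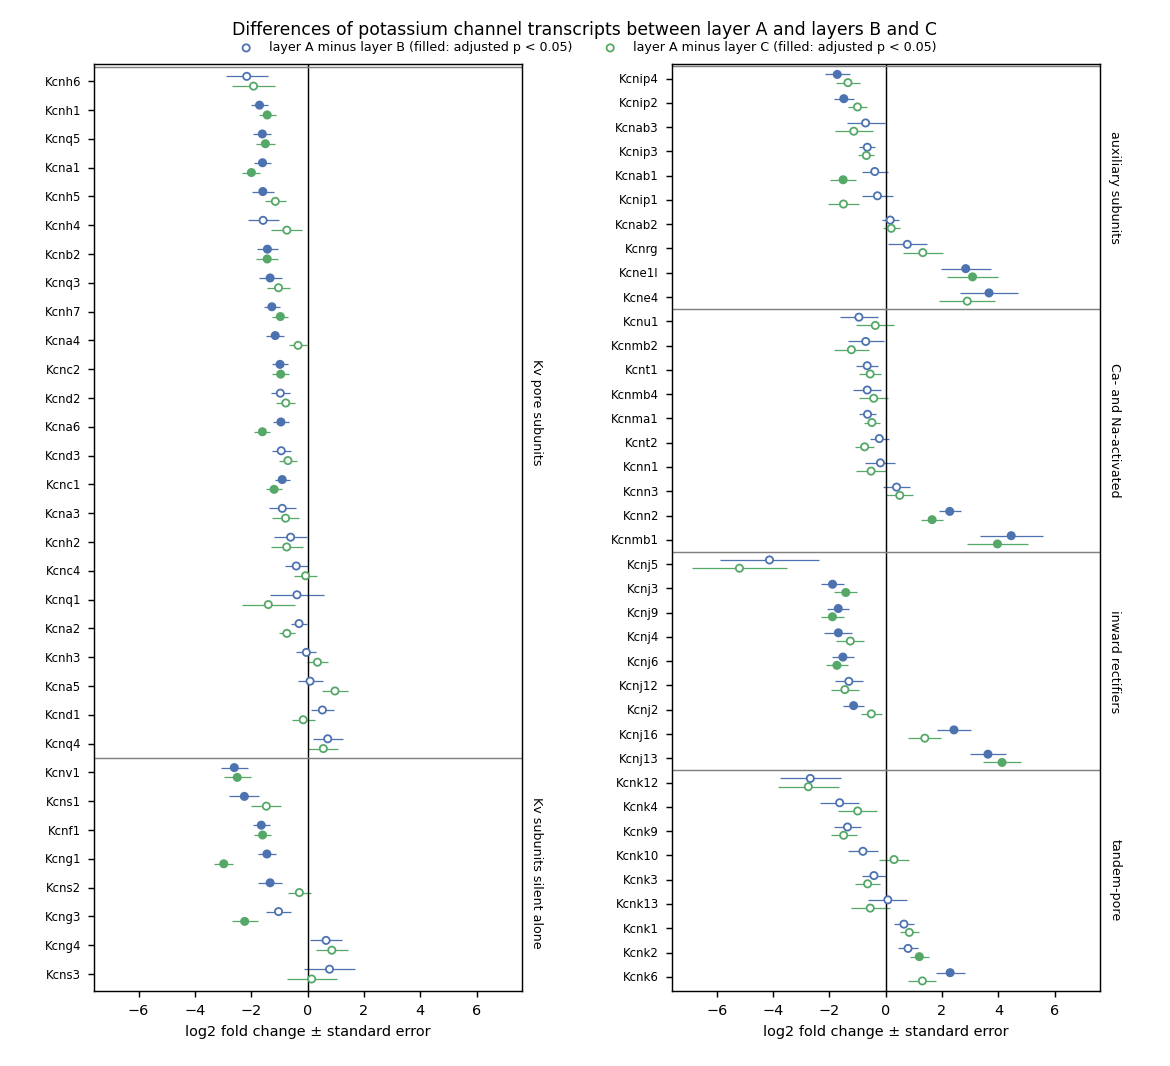
Log2 fold change of layer A over layer B (blue) and of layer A over layer C (green) with its standard error for 70 of the 73 members, grouped by class, filled where the adjusted p-value is under 0.05. Voltage-gated pore and silent subunits lie mostly left of 0, and the points far to the right are Kcnj13, Kcnj16, Kcnn2, Kcnmb1, Kcne1l, Kcne4 and Kcnk6. The open points far to the left, Kcnj5 and Kcnk12, rest on counts near 0 in layer A.

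**Figure D3:**
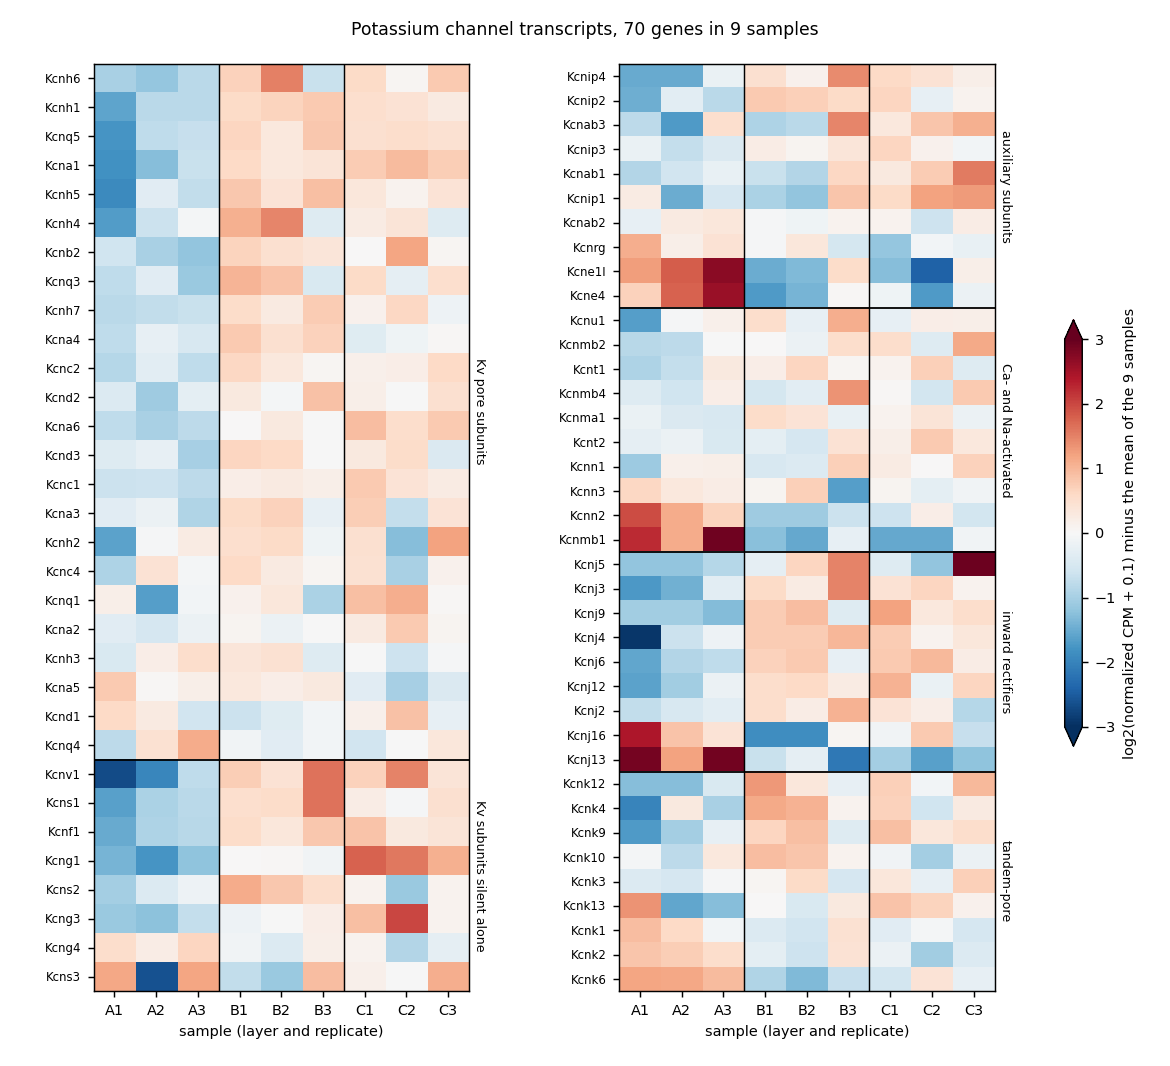
Log2 of normalized CPM plus 0.1 for 70 of the 73 members in each sample, centred on the mean of the 9 samples, with colours limited to 3 units either side. The 3 layer A columns are blue for most voltage-gated subunits, and the column of layer B replicate 3 departs from those of replicates 1 and 2 in several rows, among them Kcnab3, Kcnip1, Kcnj5 and Kcnmb4.

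Of the 27 voltage-gated pore subunits, 13 passed as lower in layer A relative to layer B and 10 relative to layer C. Of all transcripts 5.83% and 4.35% did so. None passed as higher, against 10.7% and 6.98% of all transcripts. In each comparison 24 had negative log2 fold changes. Kcna1 (chr6:126640397-126644796, minus strand of GRCm38, 2 exons) had 12.9, 18.9 and 28.8 normalized CPM in layer A replicates 1, 2 and 3, 68.9, 56.4 and 59.4 in layer B and 77.6, 88.8 and 76.7 in layer C. Every layer A sample was below every other sample. The log2 fold change was -1.60 (SE 0.31, adjusted p = 0.00303) against layer B and -2.0 (SE 0.32, adjusted p = 0.0025) against layer C by edgeR's quasi-likelihood test. It passed in each of the 9 fits that left out 1 sample, in both comparisons. Its relative Kcna2, with which it forms axonal channels, had log2 fold changes of -0.31 (adjusted p = 0.525) and -0.74 (adjusted p = 0.114) in edgeR's test.

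Channels of the ether-a-go-go family and the M-current family gave further members of this group. Kcnh1, which encodes an ether-a-go-go channel, had 7.71, 13.3 and 13.2 normalized CPM in layer A, 34.8, 37.2 and 40.4 in layer B and 33.4, 31.6 and 28.0 in layer C. Its layer A samples did not overlap with either other layer, with log2 fold changes of -1.71 (SE 0.30, adjusted p = 0.00147) and -1.44 (SE 0.30, adjusted p = 0.00796). Kcnh7, of the same family, had 43.5, 45.6 and 47.9 in layer A, 111, 91.6 and 128 in layer B and 83.3, 117 and 68.0 in layer C. It also separated layer A from both, with log2 fold changes of -1.27 (SE 0.29, adjusted p = 0.0071) and -0.97 (SE 0.29, adjusted p = 0.0397), the second of which passed in 3 of the 9 fits without 1 sample. Kcnq5, a pore subunit of the M-current, had 5.93, 12 and 12.5 in layer A, 32.3, 25.4 and 35.7 in layer B and 28.6, 29.8 and 28.2 in layer C. No layer A sample reached the lowest of the others, and the log2 fold changes were -1.61 (SE 0.33, adjusted p = 0.00364) and -1.50 (SE 0.32, adjusted p = 0.00972). For members that passed in 1 of the comparisons of layer A, the test of layers B and C bears on the difference, and no member passed it.

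The delayed rectifier Kcnb2 and the fast-spiking channel subunits Kcnc1 and Kcnc2 were lower in layer A in both comparisons, with log2 fold changes from -0.91 to -1.44. Of these calls, that of Kcnc2 against layer C (adjusted p = 0.048) held in 1 of 9 fits without 1 sample and was lost with DESeq2 size factors. Kcnc1 against layer B held in 3 of 9, and Kcnb2 against layer C in 4 of 9. Kcna4, Kcnh5 and Kcnq3 passed as lower against layer B and not against layer C, in 7, 9 and 4 of 9 fits without 1 sample. The A-type subunits Kcnd2 and Kcnd3 did not pass, with log2 fold changes of -0.97 (adjusted p = 0.0581) and -0.94 (adjusted p = 0.0658) against layer B in edgeR's test, though both passed with no filter and with gene sums. Kcna6, a relative of Kcna1, had 9.31, 8.02 and 9.10 normalized CPM in layer A, 15.9, 19.3 and 15.8 in layer B and 30.4, 23 and 27.2 in layer C. The 3 layers did not overlap. Its log2 fold change was -0.95 (SE 0.28, adjusted p = 0.0316) against layer B, which passed in 2 of 9 fits without 1 sample, and -1.61 (SE 0.29, adjusted p = 0.00397) against layer C, which passed in 9 of 9. The Kcna6 transcript counted is annotated as subject to nonsense-mediated decay, and 40.2% of its length overlaps the antisense gene Gm26673, whose reads cannot be told apart without strand.

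Of the 8 silent voltage-gated subunits, 5 passed as lower in layer A relative to layer B and 4 relative to layer C. Of all transcripts 5.83% and 4.35% did so. None passed as higher, against 10.7% and 6.98% of all transcripts. In each comparison 6 had negative log2 fold changes. Kcnv1 (chr15:45106284-45114827, minus strand, 3 exons), which joins and alters other voltage-gated subunits, had 5.84, 9.69 and 22.3 normalized CPM in layer A, 63.2, 51.5 and 118 in layer B and 60.9, 107 and 49.4 in layer C. The highest layer A sample was still below the lowest of the other 6. The log2 fold changes were -2.61 (SE 0.48, adjusted p = 0.00222) and -2.50 (SE 0.48, adjusted p = 0.00577). Kcnf1 (chr12:17172100-17176888, minus strand, 1 exon), another subunit that acts by joining others, had 11.9, 17.6 and 19.0 in layer A, 49.8, 42.9 and 59.7 in layer B and 61.4, 41.8 and 44.2 in layer C. It separated layer A from both other layers, with log2 fold changes of -1.65 (SE 0.30, adjusted p = 0.00207) and -1.60 (SE 0.30, adjusted p = 0.00522).

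Kcng1 (chr2:168260117-168281132, minus strand, 3 exons), a silent subunit of the Kcng family, gave the smallest p-value among the members against layer C. Its normalized CPM were 3.05, 2.34 and 3.52 in layer A, 8.33, 8.43 and 7.68 in layer B and 28.5, 24.8 and 17.4 in layer C. The 3 layers did not overlap. The log2 fold changes were -1.45 (SE 0.33, adjusted p = 0.00695) for layer A over layer B and -2.98 (SE 0.34, adjusted p = 0.000928) for layer A over layer C. Kcng3 had 2.03, 1.87 and 2.72 in layer A, 4.07, 4.48 and 5.16 in layer B and 8.54, 18.4 and 4.85 in layer C. It passed against layer C, with a log2 fold change of -2.24 (SE 0.46, adjusted p = 0.0079), and not against layer B (-1.03, SE 0.45, adjusted p = 0.138). Kcns1 and Kcns2 passed against layer B and not against layer C, with log2 fold changes of -2.25 and -1.33. The call of Kcns2 held in 3 of 9 fits without 1 sample. Kcng4 and Kcns3 were low in all samples, at no more than 1.30 normalized CPM. All 5 of Kcna1, Kcnf1, Kcng1, Kcnj13 and Kcnv1, and no other member, passed in both comparisons in each of the fits without 1 sample.

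Of the 10 auxiliary subunits, 2 passed as lower and 2 as higher in layer A relative to layer B, against 5.83% and 10.7% of all transcripts. Their log2 fold changes were negative in 6 and positive in 4. Kcnip3, the highest of all members per kilobase, had 54.0, 37.4 and 45.8 normalized CPM in layer A, 71.9, 65.3 and 78.8 in layer B and 95.7, 67.2 and 57.9 in layer C. Its layer A samples lay below all others, yet the log2 fold changes of -0.65 (SE 0.29, adjusted p = 0.141) and -0.69 (SE 0.29, adjusted p = 0.149) did not pass. Kcnab2, a cytoplasmic beta subunit, ranged from 24.7 to 36.9 in layer A, from 26.6 to 31.3 in layer B and from 18.9 to 34.0 in layer C, with log2 fold changes of 0.16 (SE 0.30) and 0.20 (SE 0.30). The ranges of the 3 layers overlapped. Kcnip2 and Kcnip4, of the same family as Kcnip3, were lower in layer A relative to layer B (log2 fold changes -1.49 and -1.72), though the transcripts counted for them are annotated as a retained intron and a processed transcript. Kcnab1 passed against layer C and not layer B, with a log2 fold change of -1.51 (SE 0.46, adjusted p = 0.0461) in edgeR's test, a call that held in 3 of 9 fits without 1 sample and was lost with DESeq2 size factors.

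Of the 9 inward rectifiers, 5 passed as lower and 2 as higher in layer A relative to layer B, against 5.83% and 10.7% of all transcripts. Their log2 fold changes were negative in 7 and positive in 2. The subunits of channels opened by G proteins, Kcnj3, Kcnj6 and Kcnj9, were lower in layer A than in both other layers. For Kcnj6 this held in 6 of 9 fits without 1 sample against layer B and in 7 of 9 against layer C. Kcnj3 (chr2:55435970-55598145, plus strand, 4 exons) had 12.2, 15.0 and 32.6 normalized CPM in layer A, 60.3, 48.1 and 114 in layer B and 54.3, 62.9 and 43.5 in layer C. Its layer A samples lay below all others, with log2 fold changes of -1.89 (SE 0.41, adjusted p = 0.00561) and -1.42 (SE 0.41, adjusted p = 0.0346), the second of which passed in 5 of 9 fits without 1 sample. Its transcript shares 31.1% of its length with the antisense gene Gm26794. Kcnj9 had 4.57, 4.54 and 3.79 in layer A, 16, 18.1 and 7.24 in layer B and 22.1, 11.9 and 13.8 in layer C. The layers again did not overlap with layer A, and the log2 fold changes were -1.68 (SE 0.39, adjusted p = 0.00833) and -1.89 (SE 0.39, adjusted p = 0.00814). Kcnj5, the remaining subunit of this group, had 0, 0 and 1 counts in layer A and at most 192 in any sample, so no fold is given. Kcnj2 and Kcnj4, classical strong inward rectifiers, passed as lower against layer B and not against layer C (log2 fold changes -1.14 and -1.68). Kcnj2 passed in 1 of 9 fits without 1 sample and not with DESeq2 size factors, and Kcnj4 passed in 5 of 9 fits without 1 sample.

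Kcnj13 and Kcnj16 went the opposite way, while Kcnj12 did not pass (log2 fold changes -1.31 and -1.45, adjusted p = 0.093 and 0.0804 in edgeR's test). Kcnj13 (chr1:87386363-87394729, minus strand, 3 exons), an inward rectifier known from transporting epithelia, had 6.52, 2.00 and 6.58 normalized CPM in layer A, 0.472, 0.647 and 0.104 in layer B and 0.344, 0.191 and 0.290 in layer C. The lowest layer A sample was above all others. The log2 fold changes were 3.63 (SE 0.64, adjusted p = 0.00159) and 4.13 (SE 0.67, adjusted p = 0.00262). Of 5 choroid plexus markers 1 reached the count filter and did not pass, and their sums were 0.534 to 1.61 CPM in layer A, 0.665 to 1.21 for layer B and 0.191 to 0.995 for layer C. Otx2 of that list was at 0 counts in every sample. The Kcnj13 transcript shares 49.1% of its length with Gigyf2 on the other strand, whose own log2 fold change was -0.04 (adjusted p = 0.957) against layer B. Kcnj16, known from astrocytes, where it joins Kcnj10, had 99.5, 33.4 and 24.7 normalized CPM in layer A, 5.01, 5.01 and 19.3 in layer B and 17.1, 31.9 and 11.3 in layer C. It was higher than in layer B without overlap (log2 fold change 2.42, SE 0.61, adjusted p = 0.0129) and overlapped with layer C (1.39, SE 0.59, adjusted p = 0.157). Without layer B replicate 3 the log2 fold change against layer B was 3.44.

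Of the 10 calcium- and sodium-activated channel genes, none passed as lower in layer A. Of all transcripts, 5.83% did so against layer B and 4.35% against layer C. In both comparisons 2 passed as higher, against 6.42% of all transcripts. In each, 7 had negative log2 fold changes (medians -0.44 and -0.46). Kcnma1 had 53.3, 45.3 and 43.8 normalized CPM in layer A, 88.6, 81.5 and 52.5 in layer B and 65.9, 80.2 and 54.1 in layer C. Its log2 fold changes of -0.64 (SE 0.29, adjusted p = 0.154) and -0.49 (SE 0.29, adjusted p = 0.332) did not pass, and layer A replicate 1 lay above layer B replicate 3. The beta subunit Kcnmb4, its usual neuronal partner, ranged from 3.87 to 6.76 in layer A, from 4.09 to 15.2 in layer B and from 4.02 to 10.3 in layer C, which overlap. Its transcript overlaps the antisense genes Kcnmb4os1 and Kcnmb4os2 over 26.0% and 50.7% of its length. Kcnn2, a small-conductance calcium-activated channel, had 33.3, 18.5 and 13.4 normalized CPM in layer A, 4.02, 4.02 and 5.41 in layer B and 5.45, 9.70 and 5.76 in layer C. Every layer A sample was above every other, with log2 fold changes of 2.27 (SE 0.40, adjusted p = 0.00146) and 1.65 (SE 0.39, adjusted p = 0.0146). The call against layer C held in 6 of 9 fits without 1 sample. The Kcnn2 transcript shares 7.71% and 8.77% of its length with the antisense genes A330093E20Rik and AC121957.1. Kcnn1 and Kcnn3 of the same family had log2 fold changes of -0.19 (adjusted p = 0.859) and 0.39 (adjusted p = 0.655) against layer B in edgeR's test.

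Kcnmb1, the beta subunit of the large-conductance channel in smooth muscle, was counted 15, 8 and 84 times in layer A, 1, 0 and 7 times in layer B and 0, 0 and 20 times in layer C. In normalized CPM this was 1.27, 0.534 and 2.09 in layer A, and no more than 0.17 elsewhere. The layers did not overlap with layer A, and the fitted log2 fold changes were 4.45 (SE 1.12, adjusted p = 0.0131) and 3.97 (SE 1.08, adjusted p = 0.0274), whose size rests on these low counts. The Kcnmb1 calls held in 7 of 9 fits without 1 sample against layer B and in 5 of 9 against layer C. Markers of pericytes and vascular smooth muscle summed to 217 to 336 normalized CPM in layer A, while layer B had 15.8 to 55.5 and layer C 43.3 to 62.6, and 5 of 6 passed as higher in layer A in each comparison. Kcne4 and Kcne1l, single-span membrane subunits, were likewise low. Kcne4 had 0.423, 1.00 and 1.85 in layer A, 0, 0.0231 and 0.229 in layer B and 0.196, 0 and 0.187 in layer C, and passed against layer B (log2 fold change 3.67, SE 1.05, adjusted p = 0.0251) and not layer C (2.89, SE 1.00, adjusted p = 0.0761). The call against layer B held in 5 of 9 fits without 1 sample, and its log2 fold change was 6.34 without layer B replicate 3. Kcne1l had 1.19, 1.80 and 3.39 in layer A and at most 0.687 elsewhere. It passed in both comparisons, with log2 fold changes of 2.84 (SE 0.88, adjusted p = 0.0378) and 3.08 (SE 0.89, adjusted p = 0.036), and in 4 of 9 fits without 1 sample in each.

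Of the 9 tandem-pore channels, which carry the background leak of potassium, none passed as lower in layer A. Of all transcripts, 5.83% did so against layer B and 4.35% against layer C. In each comparison 5 had negative log2 fold changes (medians -0.42 and -0.55). In each, 1 passed as higher, against 10.7% and 6.98% of all transcripts. Kcnk6 had 2.03, 2.00 and 1.70 normalized CPM in layer A, 0.404, 0.277 and 0.479 in layer B and 0.540, 1.15 and 0.690 in layer C. Layer A was above both without overlap, and the log2 fold change passed against layer B (2.29, SE 0.51, adjusted p = 0.00675) and not against layer C (1.30, SE 0.50, adjusted p = 0.113). Kcnk2, a mechanically gated leak channel, had 27.6, 25.9 and 22.5 in layer A, 12.6, 10.1 and 21 in layer B and 13.8, 7.53 and 11.7 in layer C. Layer A was again above both, and the difference passed against layer C (log2 fold change 1.19, SE 0.35, adjusted p = 0.0372), in 2 of 9 fits without 1 sample. Kcnk1, the second highest member per kilobase, had 74.0, 59.5 and 36.9 in layer A, 29.4, 26.0 and 53.3 in layer B and 30.6, 37.3 and 27.5 in layer C. It overlapped with layers B and C, with log2 fold changes of 0.65 (SE 0.34, adjusted p = 0.233) and 0.84 (SE 0.34, adjusted p = 0.142). Kcnk9, an acid-sensitive leak channel of neurons, had log2 fold changes of -1.36 (adjusted p = 0.0582) and -1.49 (adjusted p = 0.051) in edgeR's test.

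**Figure D4:**
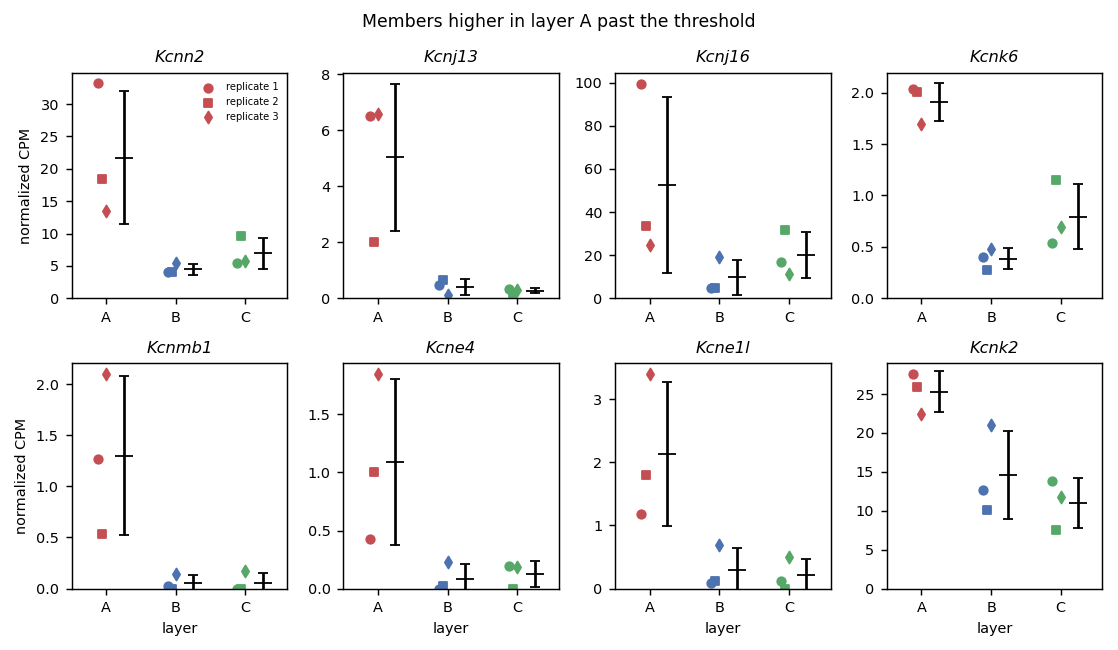
Normalized CPM in the 9 samples for the 8 members higher in layer A past the threshold in at least 1 comparison, with points by replicate and the mean ± SD (n = 3) beside them, bars cut at 0. All layer A points lie above the other layers except for Kcnj16, where layer C replicate 2 (31.9) is above layer A replicate 3 (24.7).

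Between layer B and layer C, 0 of the 73 members passed edgeR's quasi-likelihood test, as 0% of all transcripts did. At an unadjusted p-value under 0.05 there were 7 members, against 4.11% of all transcripts and 5.06% of the most abundant transcripts of protein-coding genes. DESeq2 called 1 member, Kcng1, among 124 of 56285 transcripts (0.22%). Its log2 fold change of layer B over layer C was -1.53 (SE 0.32, unadjusted p = 0.000214, adjusted p = 0.541), and the adjusted p-value in DESeq2 was 0.00581. In the edgeR alternatives its adjusted p-value was at least 0.0866, and its log2 fold change in the fits without 1 sample was between -1.74 and -1.41.

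The other members with a low unadjusted p-value went in either direction. Kcng3 (log2 fold change of layer B over layer C -1.20, edgeR unadjusted p = 0.0148), Kcnab1 (-1.12, edgeR unadjusted p = 0.0248) and Kcna6 (-0.66, edgeR unadjusted p = 0.0325) had negative values. Kcnip1, an A-type channel partner, did too (-1.21, edgeR unadjusted p = 0.0422). Kcna4, an A-type pore subunit, had 5.42, 7.75 and 6.61 normalized CPM in layer A, 16.1, 12.9 and 15.0 in layer B and 7.16, 8.42 and 9.51 in layer C, so layer B did not overlap with the others (0.81, SE 0.31, edgeR unadjusted p = 0.0184). Kcns2, a silent subunit, had 2.03, 3.14 and 3.82 in layer A, 9.28, 7.48 and 6.16 in layer B and 4.56, 1.91 and 4.55 in layer C (1.04, SE 0.41, edgeR unadjusted p = 0.0218). For both, layer B was above all other samples, and layers A and C overlapped. Kcnk10 (1.10, edgeR unadjusted p = 0.0501) and Kcna5 (0.88, edgeR unadjusted p = 0.0661) followed among the positive values. None of these p-values passed the adjustment.

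**Figure D5:**
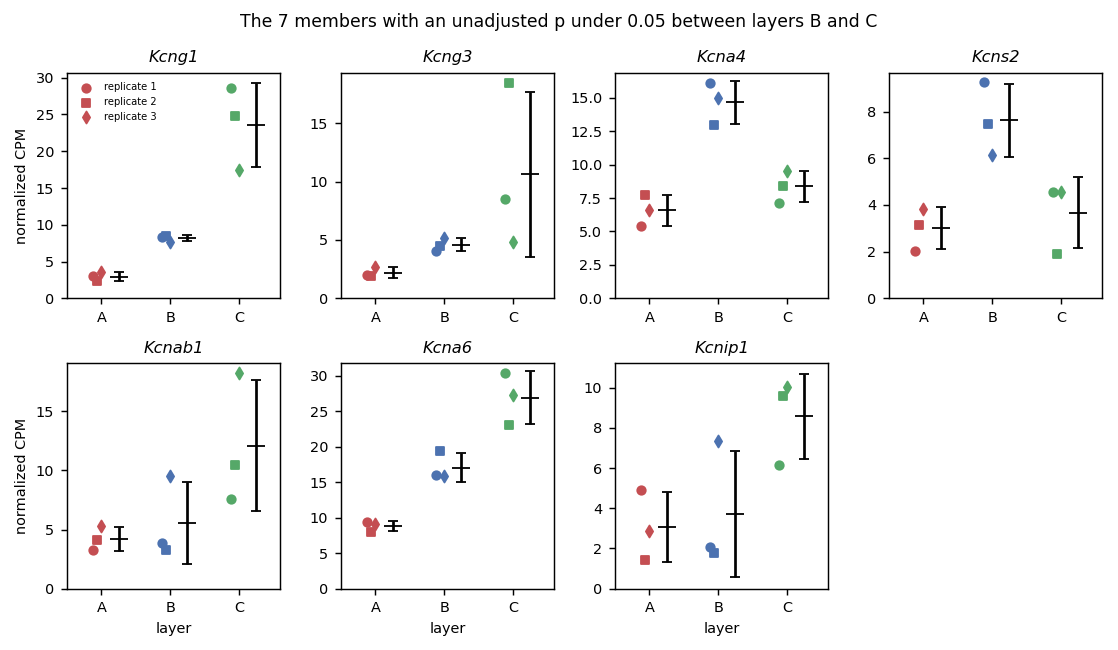
Normalized CPM in the 9 samples for the 7 members with an unadjusted p-value under 0.05 between layers B and C, with points by replicate and the mean ± SD (n = 3). Kcng1 and Kcna6 step up from layer A to B to C without overlap, Kcna4 and Kcns2 are highest in layer B, and layer B replicate 3 lies apart from replicates 1 and 2 for Kcnab1 and Kcnip1.

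Within layer B, replicate 3 was apart from the others for several auxiliary subunits. Kcnip1 had 2.07, 1.75 and 7.33 normalized CPM in layer B replicates 1, 2 and 3, and Kcnab3, a beta subunit, had 0.988, 1.09 and 5.60. GABAergic markers summed to 58.9, 54.4 and 284 in the same samples, against 175 to 280 in layer C, and oligodendrocyte markers to 42, 45.3 and 210.3. The part of these cells in the differences was not tested. Without layer B replicate 3, the log2 fold change of layer B over layer C went from -1.21 to -2.21 for Kcnip1 (adjusted p = 0.0848), from -1.12 to -1.82 for Kcnab1 (adjusted p = 0.0996) and stayed at -1.53 for Kcng1 (adjusted p = 0.0866) in edgeR's test. No member passed between layers B and C in that fit.

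Genes that accompany potassium channels were read from a list of 28, of which 26 were measured. Between layers A and B, 13 passed as lower and 2 as higher in layer A, against 5.83% and 10.7% of all transcripts. The median was -1.01 on the log2 scale, and that of all transcripts -0.12. Against layer C, 10 passed as lower and 1 as higher, against 4.35% and 6.98%, with a median of -0.92 (-0.01 for all transcripts). Those lower in both included Dpp6 and Dpp10, which accompany A-type channels (-1.68 and -1.87 against layer B), Amigo1, a partner of delayed rectifiers (-1.37), and Ank3, which anchors channels at the axon initial segment (-1.43). Lgi1 and Adam22, secreted and membrane partners of axonal Kcna channels, were lower as well (-1.01 and -1.11). Abcc9, the sulfonylurea receptor of vascular and pericyte channels, was higher in layer A in both, with 20.9, 8.62 and 10.5 normalized CPM in layer A, 0.674, 0.970 and 3.41 in layer B and 2.31, 3.76 and 2.79 in layer C. Its layer A samples did not overlap with the others (log2 fold changes 2.97 and 2.18, adjusted p = 0.00261 and 0.0199). No partner passed between layers B and C.

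Of the 91 genes, 18 did not reach the count filter, and 3 of them (Kcna7, Kcnj1 and Kcnk16) had 0 counts in every sample. Kcnk5 was counted 41 times in layer A replicate 3 and at most 3 times elsewhere, and the other genes had at most 23 counts in any sample. A count of 0 allows up to 3 counts, a floor that covers counting error only.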

How the data were processed

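RNA of piriform cortex layers A, B and C (3 samples each) was measured by RNA-seq. The authors amplified the RNA, sequenced it with a kit that does not mark strand, named mm10 as their genome build and deposited raw counts per Ensembl transcript, without normalization. The submitters' processing notes name bcl2fastq 1.8.4, Bowtie and HTSeq 0.5.3. How reads shared by several transcripts were counted is not given in the sources used here. Total counts were 23104306 to 76471683 per sample, and low members are least precise in samples where mitochondrial transcripts take most of the counts.

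Transcripts were matched to GENCODE release M21 on GRCm38 (82779 of 95533, 86.6%), and those with at least 10 counts in at least 3 of 9 samples were kept. Library sizes were scaled by TMM, and quasi-likelihood F-tests of edgeR 4.0.16 (R 4.3.3) used all 9 samples with Benjamini-Hochberg adjustment (threshold 0.05). DESeq2 1.42.0 was an alternative, among others given under how the results depend on the processing. Standard errors were derived from each log2 fold change and its F statistic (size over root of F). The edgeR test of layers A and B was also run on counts simulated from the real means, library sizes and spread. A small set of transcripts was raised or lowered in layer A. That simulation had no outlying sample and no broad shift between layers, so it does not cover these features of the data. Members, gene lists and the rule for named members were set with earlier results of these data known. Named with full statistics were the 8 members per direction that passed with the lowest p-values in each comparison of layer A, 4 per direction by unadjusted p-value between layers B and C, the 2 highest per kilobase in each class, and Kcng1. Further members, and Kcnip1, Kcnab3 and Kcnj5 among them, were named with values outside this rule. Values of 3 members are not reported here by name, and counts over all members include them.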

Additional observations from a re-analysis of the deposited data

How the results depend on the processing

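Between layers A and B the number of members called was 32, and it stayed within 1.5 times of this (26 to 45) under DESeq2 size factors, the DESeq2 test, a stricter filter (10 counts in each of the 9 samples), no filter, gene sums, 1 transcript per gene, removal of mitochondrial transcripts, an unadjusted threshold and a fit of those 2 layers alone. Across these settings 13.6 to 29.0% of all transcripts or genes tested were called. The stricter filter left 50 members to test, of which 27 were called, 3 of them as higher in layer A. Members it dropped, Kcnj13, Kcnmb1, Kcne4 and Kcne1l among them, are not counted as lost. Between layers A and C, 23 members were called (11.3% of all transcripts), and an unadjusted threshold gave 44 (24.5%). For any difference among the layers 28 were called (14.3%), and an unadjusted threshold again gave 44 (25.3%). Between layers B and C none was called by edgeR, 1 was called by DESeq2 and 7 had an unadjusted p-value under 0.05. Leaving out each sample in turn gave 17 to 37 members between layers A and B and 7 to 36 between layers A and C. It gave 0 to 0 between layers B and C and 14 to 39 among the layers. The shares of all transcripts in these fits were, in the same order, 10.1 to 20.1%, 2.42 to 17.3%, 0 to 0.0301% and 7.38 to 20.1%. No named member reversed its direction in a comparison it had passed. For the 36 pairs of member and comparison chosen by the rule, 605 values kept their direction and side of the threshold. Another 33 lost the threshold when 1 sample was left out, and 1 gained it (Kcng1 between layers B and C with DESeq2). Pairs between layers B and C had not passed, so for them keeping the side meant staying short of the threshold. Those of layer A were chosen by the lowest p-values in these same data. The tally over the 36 pairs therefore does not measure how stable calls are in general. Calls outside these pairs were lost more widely: Kcnj2 (A and B) with DESeq2 size factors, without mitochondrial transcripts and in the fit of 2 layers, Kcnc2 (A and C) with DESeq2 size factors, the stricter filter and without mitochondrial transcripts, Kcnab1 (A and C) with DESeq2 size factors and the stricter filter, Kcns2 (A and B) with the stricter filter, and Kcna6, Kcnc1, Kcnc2, Kcnj4 and Kcnq3 (A and B) in the fit of 2 layers. The fits without 1 sample hold fewer samples, and the cause of the rise without layer B replicate 3 was not tested. For any difference among the layers the count was 14, 15 and 17 without layer A replicates 1, 2 and 3. It was 18 without layer C replicate 1 and 39 without layer B replicate 3. In these fits 7.38, 8.53, 11.0, 10.3 and 20.1% of all transcripts were called, in the same order. The labels give replicate numbers that the layers share. Same-numbered samples had correlations of their deviations from -0.216 to 0.271, above 0.1 in 5 of 9 pairs. Samples with different numbers had -0.418 to 0.475, above 0.1 in 6 of 18 pairs. Of the 9 samples, 5 correlated best with their own number. Replicate 3 had the highest total count in each layer. These values do not settle whether the numbers pair the samples, and the main fit left such pairing out. A replicate block gave 34, 23, 0 and 28 members for the 4 tests, against 16.3, 11.3, 0 and 14.0% of all transcripts. With it Kcnd2, Kcnd3 and Kcnj5 were gained and Kcnj2 was not called between layers A and B, and Kcnip4 and Kcnj5 were gained and Kcnc2 and Kcnh7 not called between layers A and C. Depth limits the fold changes of members with few counts, such as Kcne4, Kcne1l and Kcnmb1.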
